A study of Bos taurus with 15 samples.

Results

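ULBP27 and 7 further rows of a bovine morula count table form a set because they were lowest in parthenogenetic libraries, present in every ICSI library and very uneven among androgenetic libraries. They are 8 of 31999 rows, and all 8 were among the 16375 rows that passed the filter on low counts. The choice rested on the counts of all 15 libraries. The levels, fold changes and calls of these rows are therefore descriptions, with no test, and a member that passed the filter only through the groups where it is high had to differ. The choice set no condition on the proportion of the rows to each other within a library. These proportions come from the same counts, so they are descriptions too. Rows outside the set entered the choice only by not being chosen.

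The libraries came from cattle embryos at the morula stage, the compact ball of cells before the blastocyst. There were 5 libraries of haploid androgenetic embryos (titles beginning TII, replicates 1, 2, 4, 5 and 6), 5 of haploid parthenogenetic embryos (titles beginning CHX, replicates 1, 2, 3, 5 and 6) and 5 of diploid embryos from ICSI, the injection of a sperm into an oocyte (replicates 1 to 5). An androgenetic embryo carries only a sperm genome and a parthenogenetic embryo only an oocyte genome. Each group was made by its own procedure. Against ICSI, procedure, ploidy and the missing parental genome cannot be told apart; between the haploid groups ploidy is the same, and procedure and parental genome cannot be told apart. The labels name no agent, breed, bull, donor, pool size or day. Nothing in them says that replicates came from separate embryos.

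ULBP proteins are cell-surface relatives of MHC class I molecules. They are ligands of NKG2D, an activating receptor of natural killer cells and some T cells, and in human and mouse cells they appear after infection, DNA damage or other stress. Cattle carry an expanded family of ULBP genes. ULBP27 and LOC112445446 were the only members with an entry in RefSeq's gene table for ARS-UCD2.0: both are protein-coding, both are assigned to no chromosome there, and LOC112445446 has no symbol. The other 6 members stand under Ensembl identifiers that no table used here pairs with a gene, so no function is given for them. ULBP17, ULBP21 and RAET1L, further genes of the family, are on chromosome 9 in that table, while ULBP3 and ULBP13 are without a chromosome like ULBP27.

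The libraries held 19968077 to 28981601 counts each, and 13564 to 19950 rows had at least 1 count. Androgenetic replicate 6 and ICSI replicate 5 had the fewest rows detected in their groups, 13564 and 15286. The paternally expressed imprinted gene SNURF matched the group labels: its level, as CPM (counts scaled to library size with TMM factors), lay between 161 and 316 in androgenetic libraries, between 0.0445 and 1.54 in parthenogenetic ones and between 79.1 and 201 after ICSI. Of the markers listed for the morula and inner cell mass, SOX2 was the only 1 of 6 under a symbol, at 0.163 to 6.53 CPM in androgenetic libraries, 1.40 to 8.28 CPM in parthenogenetic ones and 1.08 to 3.62 CPM after ICSI. Markers of trophectoderm (0 of 6), oocyte (0 of 7), cumulus cells (0 of 7), spermatozoa (0 of 5) and immune cells (0 of 5) had no row under a symbol, so the cell content of the libraries could not be checked with them. In such bulk libraries, fewer cells expressing a gene and less RNA per cell cannot be told apart.

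ULBP27 was nearly absent without a sperm genome and followed no single level with one. It stood at 9.22, 0.185, 34.2, 2.79 and 32.1 CPM in androgenetic replicates 1, 2, 4, 5 and 6. Parthenogenetic replicates 1, 2, 3, 5 and 6 had 2, 1, 9, 0 and 0 raw counts, which is a mean of 0.0804 ± 0.122 CPM (SD, n = 5). ICSI replicates 1 to 5 had 75.1, 19.6, 17.2, 13.99 and 15.2 CPM. Androgenetic replicates 4 and 6 were thus above 4 of the 5 ICSI libraries, while androgenetic replicate 2, with 3 counts, lay inside the parthenogenetic range. The fitted log2 fold changes were -0.84 ± 0.99 (SE) for androgenetic against ICSI, -8.33 ± 1.38 for parthenogenetic against ICSI and 7.49 ± 1.34 for androgenetic against parthenogenetic. Leaving out 1 library at a time, they ranged from -1.35 to -0.08, from -9.76 to -7.56 and from 6.98 to 8.91 in the same order. ULBP27 was tested between the haploid groups only through its ICSI counts.

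ENSBTAG00000024490 and ENSBTAG00000023970 had the same outline. ENSBTAG00000024490 was at 4.78, 0.123, 25.8, 0.297 and 18.7 CPM in the androgenetic libraries in the same order, at 0 to 5 counts in each parthenogenetic library, and at 54.6, 13.8, 11.9, 9.68 and 11.8 CPM in the ICSI libraries. ENSBTAG00000023970 was at 10.49, 0.0616, 29.3, 10.4 and 41.5 CPM in androgenetic libraries, at 0 to 16 counts in parthenogenetic libraries, and at 49.8, 20.8, 16.2, 16.7 and 13.1 CPM in ICSI libraries. All 3 rows had their highest androgenetic levels in replicates 4 and 6 and their lowest in replicate 2. They parted in androgenetic replicate 5, where ENSBTAG00000024490 had 5 counts and ENSBTAG00000023970 had 175.

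ENSBTAG00000001836, ENSBTAG00000026437 and LOC112445446 differed from that trio in androgenetic replicate 6. ENSBTAG00000001836 had 48.0, 0.308, 258, 19.5 and 0.217 CPM in androgenetic replicates 1, 2, 4, 5 and 6. Its parthenogenetic libraries had 6, 2, 2, 2 and 2 counts, and ICSI replicates 1 to 5 had 420, 136, 148, 118 and 48.3 CPM. Replicates 2 and 6 of the androgenetic group, with 5 and 4 counts, were therefore close to the parthenogenetic libraries, and replicate 4 exceeded 4 of the 5 ICSI libraries.

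ENSBTAG00000026437 had 1.98, 0.123, 11.02, 0.713 and 0.0542 CPM in androgenetic libraries, 0 counts in all 5 parthenogenetic libraries, and 40.2, 5.77, 6.16, 5.84 and 4.49 CPM in ICSI libraries. Those 5 zeros allow up to 0.0215 CPM over the group (3 counts), so parthenogenetic libraries were at least 580.4-fold lower than the ICSI mean of 12.5 ± 15.5 CPM (SD, n = 5). LOC112445446 had 2.37, 0.0616, 18.1, 0.119 and 0.163 CPM in androgenetic libraries, 1 count over all 5 parthenogenetic libraries, and 88.6, 14.4, 12.9, 8.59 and 8.47 CPM in ICSI libraries. In both rows androgenetic replicate 4 was inside the ICSI range, replicate 1 was below every ICSI library, and replicates 2, 5 and 6 were at 12 counts or fewer.

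ENSBTAG00000048950 and ENSBTAG00000055259 were intermediate in androgenetic replicate 6. ENSBTAG00000048950 had 69.5, 0.493, 273, 23.7 and 21.4 CPM in androgenetic, 0.320, 0.270, 0.130, 1.53 and 0.133 CPM in parthenogenetic, and 441, 179, 170, 145 and 56.9 CPM in ICSI libraries. ENSBTAG00000055259 had 202, 7.33, 462, 117 and 22.4 CPM in androgenetic libraries. It alone kept over 100 counts in every parthenogenetic library, at 6.83, 6.72, 7.98, 7.69 and 9.39 CPM, or 174 to 246 counts. Its ICSI libraries had 769, 285, 324, 237 and 108 CPM. Androgenetic replicate 2, at 7.33 CPM, lay within the parthenogenetic range, and the other 4 androgenetic libraries lay above it.

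**Figure D1:**
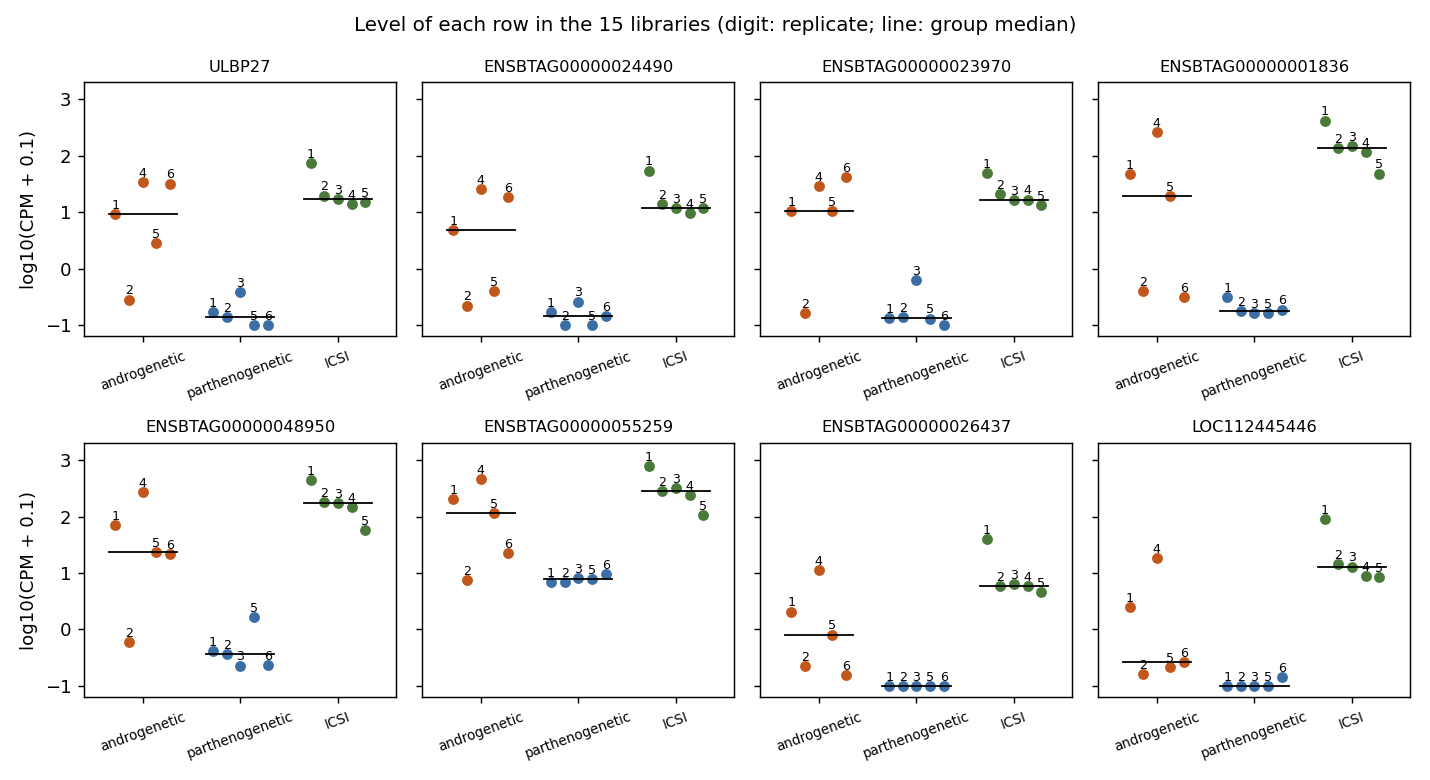
Each panel plots 1 of the 8 rows, with log10(CPM + 0.1) on the vertical axis and the androgenetic, parthenogenetic and ICSI groups from left to right; each point is a library, its digit is the replicate number and the line is the group median. Androgenetic replicate 2 is near the parthenogenetic libraries in every panel, and androgenetic replicate 6 is near them for ENSBTAG00000001836, ENSBTAG00000026437 and LOC112445446 but at 32.1 CPM for ULBP27.

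Summed over the 8 rows, androgenetic replicates 1, 2, 4, 5 and 6 had 348, 8.68, 1112, 174 and 136 CPM. The parthenogenetic libraries had 7.14 to 9.70 CPM, most of it from ENSBTAG00000055259. The ICSI libraries had 1938, 674, 706, 555 and 266 CPM in replicates 1 to 5. The means were 356 ± 440 CPM in androgenetic, 8.57 ± 1.15 CPM in parthenogenetic and 828 ± 644 CPM in ICSI libraries (SD, n = 5 each). XIST, the RNA that coats an inactive X chromosome, was at 5.36, 5.54, 13.9, 22.04 and 22.7 CPM in androgenetic replicates 1, 2, 4, 5 and 6, and at 26.4 to 90.7 CPM in parthenogenetic libraries. Androgenetic replicates 1 and 2 were alike in XIST and stood at 348 and 8.68 summed CPM. Within ICSI, replicate 1 was the highest library for all 8 rows, at 2.37 to 6.53 times the next. That library also had the lowest XIST level of its group, 1.15 CPM against 20.5 to 42.4 CPM in the other ICSI libraries. Whether XIST or the sex of embryos plays a part in the levels of the 8 rows was not tested.

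SNURF was more even in androgenetic libraries. In androgenetic replicate 2, where the 8 rows had 8.68 CPM in all, SNURF was at 174 CPM, inside the range of 161 to 316 CPM of that group. In androgenetic libraries its coefficient of variation (SD over mean) was 29.3%, against 91.0% to 189% for the 8 rows with a median of 131%. The androgenetic group was uneven throughout, with a median of 91.8% over the 16264 tested rows with counts in that group, and 50.4% of the 16375 tested rows were at or above the lowest member. In ICSI libraries the members' median was 87.6%, against 56.4% over 16370 rows.

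**Figure D2:**
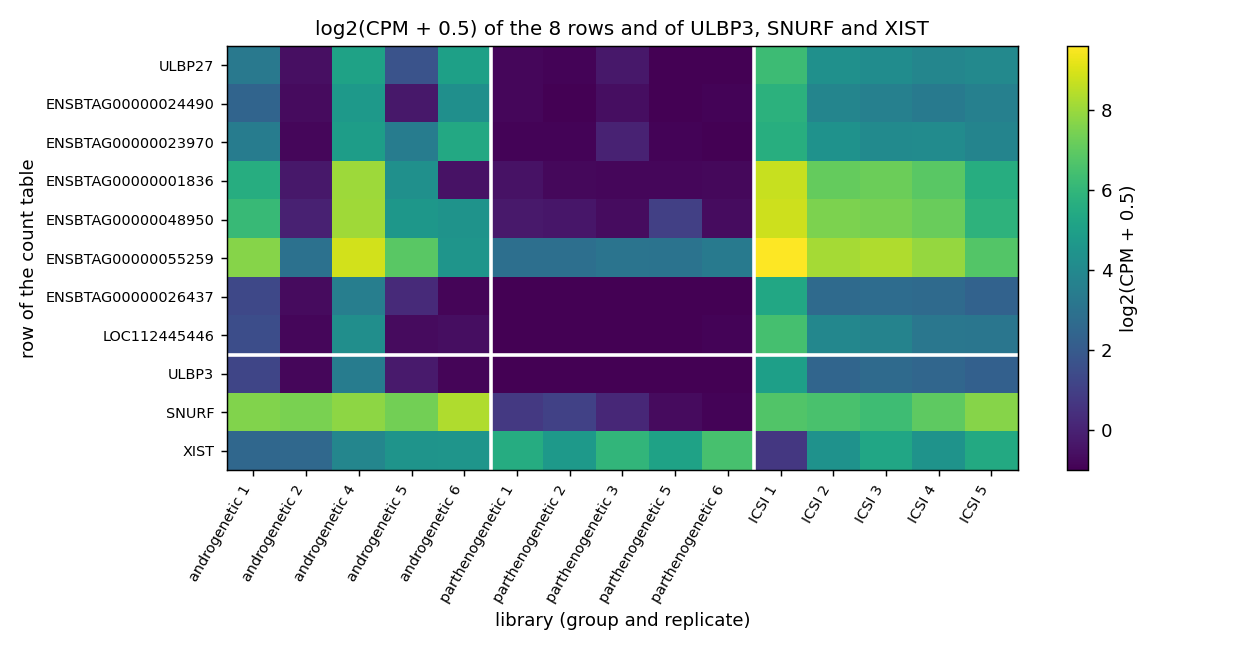
The colours give log2(CPM + 0.5) for the 8 rows and, under the white line, for ULBP3, SNURF and XIST in the androgenetic, parthenogenetic and ICSI libraries from left to right. ULBP3 changes from library to library like the lower rows of the set, whereas SNURF is high in all 5 androgenetic libraries, replicate 2 with 174 CPM included.

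Read as a set, all 8 rows had a negative log2 fold change in androgenetic against ICSI libraries, with a median of -1.22 (from -2.67 to -0.35), where the median of all rows was -0.01. These values moved by over 1.5 times when 1 library was left out: without androgenetic replicate 4 LOC112445446 was at -5.27, ENSBTAG00000026437 at -4.11 and ENSBTAG00000001836 at -3.36, and without ICSI replicate 1 they were at -1.42, -1.01 and -0.79. ENSBTAG00000023970 turned to 0.13 without ICSI replicate 1 and to 0.02 without androgenetic replicate 2. edgeR's quasi-likelihood test called 0 of the 8 at an adjusted p under 0.05, where over all rows it called 1.76% higher and 1.06% lower. LOC112445446 was the only 1 of the 8 at an unadjusted p under 0.05 in that test, beside 3231 of all 16375 rows. DESeq2 also called 0 of the 6 to which it gave an adjusted p, and over all rows it called 1252 higher and 735 lower. Libraries of the groups overlapped in all 8 rows, and over all rows 4.15% had every androgenetic library below every ICSI library and 3.05% every one above. In parthenogenetic against ICSI libraries the median log2 fold change was -8.52 (from -11.31 to -5.48) and 7 of 8 were called lower, beside 0.0733% of all rows; ENSBTAG00000026437 was the exception. In 8 of 8 every parthenogenetic library was below every ICSI library, beside 0.501% of all rows, and 0.379% lay wholly above. In androgenetic against parthenogenetic libraries the median was 7.41 (from 4.39 to 9.27) and 8 of 8 were called higher, beside 0.916% of all rows higher and 0.837% lower. ULBP27, ENSBTAG00000024490, ENSBTAG00000001836, ENSBTAG00000026437 and LOC112445446 did not pass the filter in the fit of the haploid groups alone. They were tested between them only through their ICSI counts. The libraries of the haploid groups did not overlap in 3 of the 8 rows, all with the androgenetic libraries above, beside 1.78% of all rows above and 2.77% below. The comparisons share their libraries, and the members were chosen on these counts, so none of these shares supports a statement about the rows. Calls of the 8 rows against ICSI fell to 0 without parthenogenetic replicate 1, 2 or 6, to 1 without replicate 5 and to 3 without parthenogenetic replicate 3 or ICSI replicate 1. Over all rows calls fell too, from 12 to 3 without parthenogenetic replicate 1, 2 or 6, to 4 without replicate 5, to 9 without replicate 3 and to 8 without ICSI replicate 1. Calls between the haploid groups fell to 0 without parthenogenetic replicate 1, to 1 without replicate 5 and to 2 without replicate 3. Those over all rows fell from 150 higher and 137 lower to 7 and 7, to 15 and 11, and to 12 and 8 in the same order. The loss of calls was thus not particular to the 8 rows.

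Other rows with every parthenogenetic library below every ICSI library rarely combined a wide gap with a wide androgenetic spread. The members were chosen for these features, and the limits used here are the members' own lowest values. The comparison therefore restates the choice and only describes the rows outside the set. There were 82 such rows in all, 74 of them outside the set. Setting values below 3 counts in the deepest library of the group to that level, the lowest ICSI library was 11.5 to 226 times the highest parthenogenetic library in the 8 members, and the median over the other 74 rows was 1.19. The highest androgenetic library was 63.1 to 1192 times the lowest in the members, and the median over the other 74 was 19.3. Of these 74 rows, 5 had a gap as large as the least of the members, and 18 a spread as large. ULBP3 was the only row with both, at 45.9 and 91.0. Among rows with such a spread the next gap was that of ENSBTAG00000047129, at 9.35 and 68.6, and the least member was ENSBTAG00000055259, at 11.5 and 63.1. The other 4 with such a gap were SNURF, ENSBTAG00000008251, ENSBTAG00000032079 and ENSBTAG00000039329, whose androgenetic libraries spanned 1.97 to 9.79 times.

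**Figure D3:**
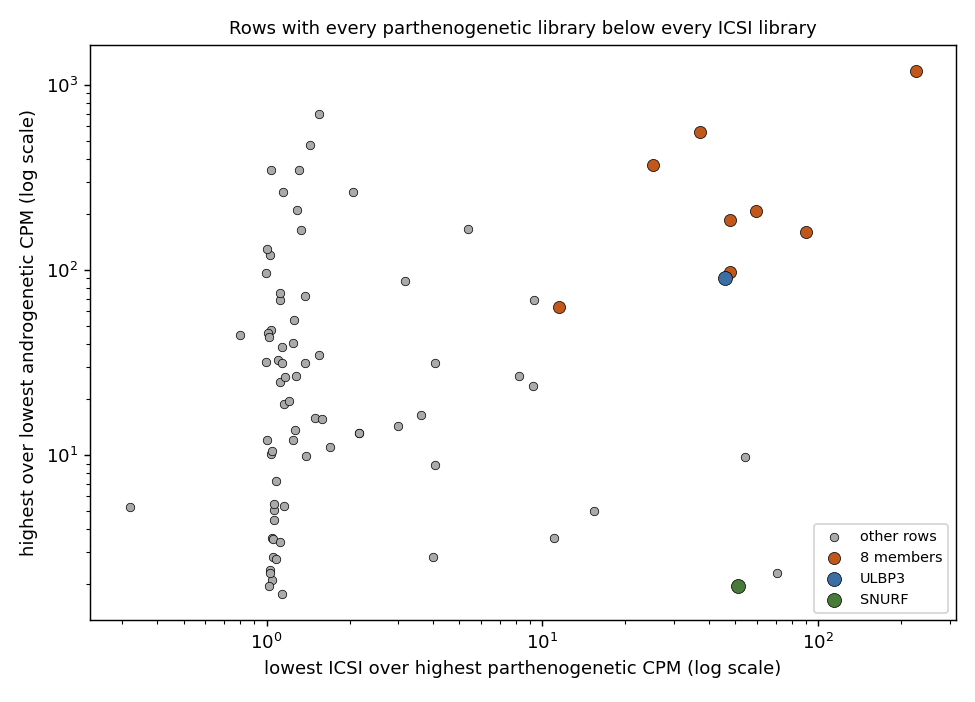
Each point is 1 of the 82 rows with every parthenogenetic library below every ICSI library; the horizontal axis is the lowest ICSI over the highest parthenogenetic CPM and the vertical axis the highest over the lowest androgenetic CPM, both on log scales with a floor of 3 counts. The 8 members and ULBP3 lie to the upper right, and SNURF, with a spread of 1.97 times, lies to the lower right. The members were chosen for these features, so their place restates the choice.

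ULBP3, another NKG2D ligand gene of the family, is outside the set and had nearly its pattern. It stood at 1.80, 0.0616, 10.3, 0.356 and 0.0542 CPM in androgenetic replicates 1, 2, 4, 5 and 6. It had 0 counts in all 5 parthenogenetic libraries, and 31.4, 4.94, 5.83, 5.12 and 4.30 CPM in ICSI replicates 1 to 5. Parthenogenetic libraries were at least 478.8-fold lower than the ICSI mean at a floor of 3 counts over the group. In edgeR's quasi-likelihood test over all rows it was higher in androgenetic than in parthenogenetic libraries (fitted fold 512, SE 1.91 on the log2 scale, adjusted p = 0.0354), and lower in parthenogenetic than in ICSI libraries without passing (-11.03 ± 2.02, adjusted p = 0.0944). The call between the haploid groups was kept in 7 of 15 fits that left out a library, and the replicate block ended it. In the fit of the haploid groups alone ULBP3 did not pass the filter on low counts. It was tested between them only through its ICSI counts, so that call is a description. Androgenetic against ICSI gave -2.03 ± 1.29 (adjusted p = 0.418, edgeR). ULBP3 tracked a member so closely, as described next, that it is no separate evidence for the pattern.

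The RefSeq table lists ULBP3 as the 9th entry after ULBP27, in a run of entries without a chromosome that also holds ULBP13; whether they share a scaffold is not stated there. Of the 13 neighbouring entries looked up around ULBP27, 5 had a row in the count table. LOC112445512 (log2 fold change -4.05) and LOC112445516 (-2.34) did not pass in parthenogenetic against ICSI libraries (edgeR adjusted p = 0.99997 for each). LOC112445511 and LOC786095, with 43 and 67 counts in all, were below the filter. Around LOC112445446 the nearest entries with a tested row were LOC112441541 (1.77) and LOC112445447 (-1.08), and neither passed (edgeR adjusted p = 0.99997 for each). Of 130 rows without a chromosome 80 were tested, and 3 of them (3.75%, beside 0.501% of all rows) had every parthenogenetic library below every ICSI library, namely ULBP27, ULBP3 and LOC112445446. ULBP27 and LOC112445446 were chosen for this trait, and ULBP3 tracked members closely. That share is therefore no finding about rows without a chromosome. The median log2 fold change of the 80 was 1.38 in androgenetic against ICSI libraries, beside -0.01 over all rows. It was -0.02 in parthenogenetic against ICSI libraries (all rows 0.02) and 1.10 in androgenetic against parthenogenetic libraries (all rows -0.002). In the same order 2, 0 and 4 of the 80 were called higher, beside 1.76%, 0% and 0.916% of all rows. Called lower were 0, 2 and 0, beside 1.06%, 0.0733% and 0.837%. The 2 called lower were ULBP27 and LOC112445446, and these and ULBP3 were among the 4 called higher. Those counts are therefore no finding about rows without a chromosome.

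Of the 17 genes listed as NKG2D ligands or its receptor and adaptor, 3 had a row under a symbol: ULBP27, ULBP3 and RAET1L. RAET1L was at 4.39, 0.0616, 3.12, 4.81 and 0 CPM in androgenetic replicates 1, 2, 4, 5 and 6, at 1.85, 0, 1.82, 0.0313 and 0.0890 CPM in parthenogenetic libraries, and at 2.82, 2.15, 1.76, 1.94 and 0.421 CPM in ICSI libraries. None of its 3 contrasts passed, with log2 fold changes of 0.45 ± 1.43 (SE) and -1.26 ± 1.45 for androgenetic and for parthenogenetic against ICSI libraries, and 1.70 ± 1.47 between the haploid groups (edgeR adjusted p = 0.8999, 0.99997 and 0.582). In androgenetic replicate 6, where ULBP27 was at 32.1 CPM, RAET1L had 0 counts. The lists of MHC class I presentation (15 genes), of the DNA damage and heat shock response (14 genes) and of Y-linked genes (17 genes) had 0 rows under a symbol. By RefSeq, 2 rows lay on chromosome Y, of which CSF2RA had 0 to 25 counts per androgenetic library, 3 to 26 per parthenogenetic library and 1 to 6 per ICSI library. LOC112442075 had 253, 33, 180, 16 and 0 counts in androgenetic replicates 1, 2, 4, 5 and 6, at most 21 in parthenogenetic and at most 9 in ICSI libraries. LOC112442075 thus did not follow the 8 rows into the ICSI group. CSF2RA and LOC112442075 both had counts in parthenogenetic libraries, which carry no sperm genome and so no Y chromosome. Neither row is therefore a measure of Y-linked RNA here. Of 16 paternally expressed imprinted genes, SNURF, MKRN3 and USP29 had a tested row, and SNURF alone passed in the comparisons with parthenogenetic libraries. Of 9 genes of embryonic genome activation 2 were tested, and neither passed in any contrast.

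The rows moved together between libraries, but not as 1 block. Over the 10 androgenetic and ICSI libraries the median Pearson correlation of log2(CPM + 0.5) over the 28 pairs of members was 0.840, from 0.539 to 0.982. These points share library and depth, and the members were chosen for a like pattern, so the values are descriptions. Within ULBP27, ENSBTAG00000024490 and ENSBTAG00000023970 the correlation was 0.835 to 0.968, and within ENSBTAG00000001836, ENSBTAG00000026437 and LOC112445446 it was 0.886 to 0.982. Between these trios, which were drawn up after the values were seen, it was 0.539 to 0.785. ENSBTAG00000048950 and ENSBTAG00000055259 correlated at 0.954 with each other, at 0.635 to 0.864 with the ULBP27 trio and at 0.851 to 0.971 with the other trio. Without androgenetic replicate 2, which was low in all 8 rows, the median over the 28 pairs was 0.692. Without androgenetic replicate 6, the library for which the trios were drawn up, it was 0.945. That library had the fewest rows detected of all, 13564, and whether this plays a part in the split was not tested. Among the 5 androgenetic libraries alone the median correlation was 0.800, and among the 5 ICSI libraries alone 0.910.

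**Figure D4:**
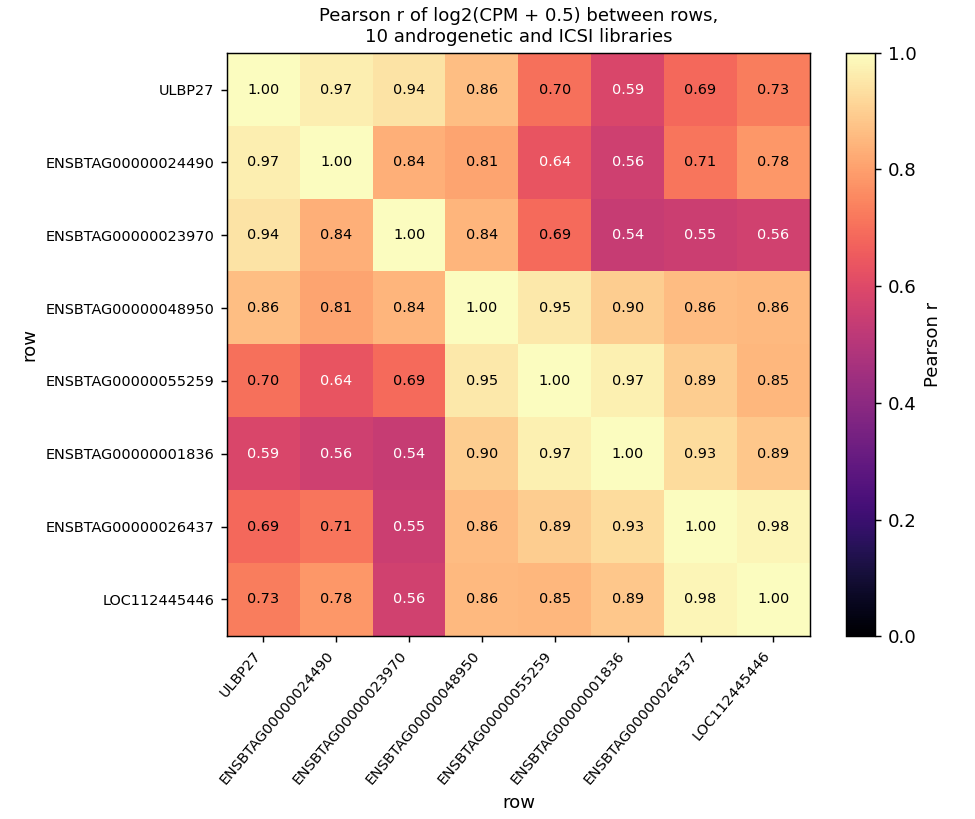
Both axes list the 8 rows and each cell gives Pearson's r of log2(CPM + 0.5) over the 10 androgenetic and ICSI libraries. ULBP27 is closest to ENSBTAG00000024490 and ENSBTAG00000023970, and the lowest values, down to 0.539, lie between that trio and ENSBTAG00000001836, ENSBTAG00000026437 and LOC112445446.

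Proportions between rows within a library need no scaling between libraries. Since the second trio was drawn up for its low counts in androgenetic replicate 6, its share there restates that choice. The ULBP27 trio took 31.9%, 42.9%, 23.7%, 39.9% and 99.5% of the counts of both trios in androgenetic replicates 1, 2, 4, 5 and 6, where replicate 2 rested on 14 counts. Androgenetic replicate 6 stood apart, with 1703 counts on the ULBP27 trio and 8 on the other, an exact 95% binomial interval of 99.1% to 99.8% that covers counting error only. The other 4 androgenetic libraries lay near or within the range of the ICSI libraries. The parthenogenetic libraries had 3 to 32 counts on the 6 rows, and in replicate 3, the library with 32, the trio held 30 of them (93.8%, interval 79.2% to 99.2%). The shares in ICSI replicates 1 to 5 were 24.7%, 25.8%, 21.4%, 23.3% and 39.6%.

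ENSBTAG00000001836 and ENSBTAG00000048950 were in a steady proportion in ICSI libraries and in 3 of the 4 androgenetic libraries with more than 13 counts on the pair. ENSBTAG00000001836 made up 40.9%, 48.6% and 45.1% of the counts of the pair in androgenetic replicates 1, 4 and 5, and 38.5% in replicate 2 (5 of 13 counts, exact interval 13.9% to 68.4%). In androgenetic replicate 6 ENSBTAG00000001836 made up 1.01% (4 of 398 counts, exact interval 0.274% to 2.55%). That row was placed in the second trio for its low counts there, so this share partly restates that choice. In parthenogenetic replicate 5 it made up 3.92% (2 of 51 counts, interval 0.478% to 13.5%), and the other parthenogenetic libraries had 5 to 15 counts on the pair. In the ICSI libraries it made up 43.1% to 48.8%. ENSBTAG00000048950 in turn made up 25.6%, 6.299%, 37.1%, 16.9% and 48.8% of its counts with ENSBTAG00000055259 in androgenetic replicates 1, 2, 4, 5 and 6, against 1.40% to 16.6% in parthenogenetic libraries and 34.4% to 38.6% after ICSI. Androgenetic replicate 2 was thus inside the parthenogenetic range, and replicate 6 was above every ICSI library.

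Of its counts with ULBP27, ENSBTAG00000024490 held 34.2%, 43.0% and 36.8% in androgenetic replicates 1, 4 and 6, and 9.62% in replicate 5 (5 of 52 counts, exact interval 3.20% to 21.0%). In ICSI libraries the proportion was nearly fixed, at 40.8% to 43.7% over 577 to 3496 counts. ENSBTAG00000023970 went the other way in androgenetic replicate 5, at 78.8% of its counts with ULBP27 (interval 72.9% to 84.0%), against 39.9% to 54.4% in ICSI libraries. LOC112445446 held 20.5%, 34.6%, 4.08% and 0.503% of its counts with ULBP27 in androgenetic replicates 1, 4, 5 and 6, against 35.8% to 54.1% in the 5 ICSI libraries. Its share in androgenetic replicate 6 again restates how the trios were drawn up.

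ULBP3 and ENSBTAG00000026437 were in nearly fixed proportion in libraries with many counts: ULBP3 held 47.7% and 48.2% of the pair in androgenetic replicates 1 and 4, and 43.8% to 48.9% in the ICSI libraries. Their correlation over the 10 libraries was 0.997, and that of ULBP3 with LOC112445446 was 0.991. No other row matched a member's counts within 2% or 3 counts in every library. Rows in fixed proportion may still be the same or overlapping genes under several names, or near-identical copies that share reads, and how the counting treated strand is not known here. The 8 rows are therefore uncertain as separate genes.

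**Figure D5:**
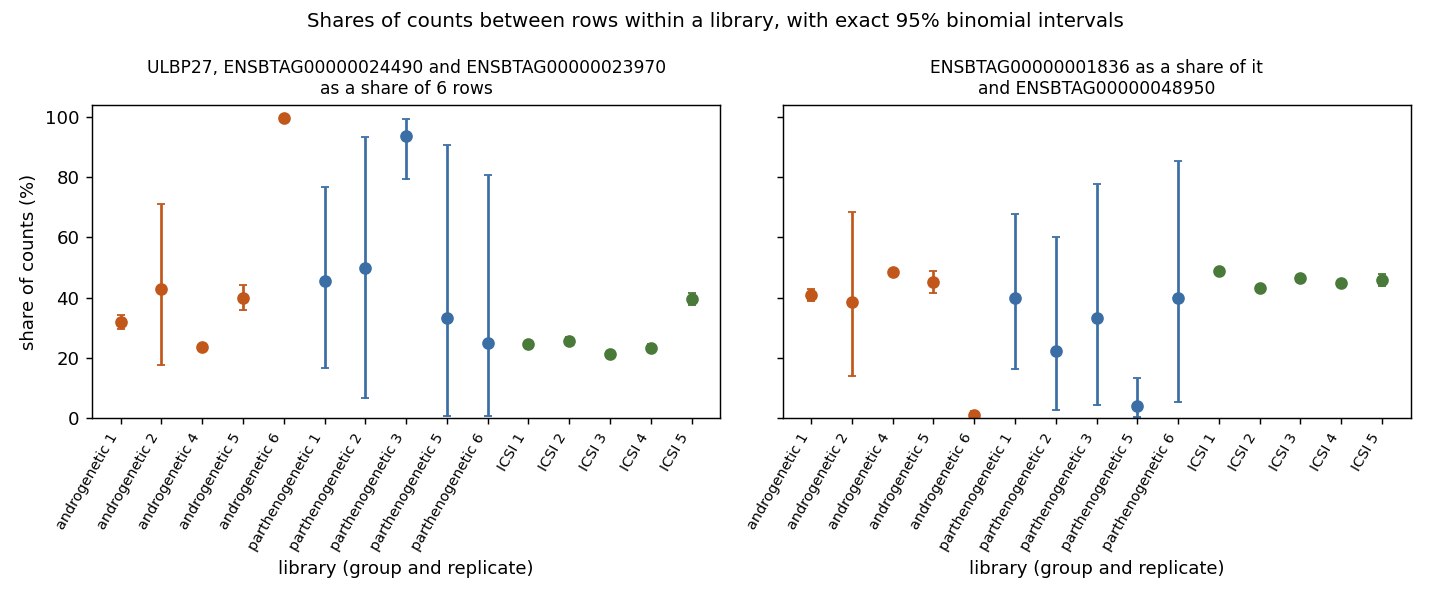
Each point is a library, from the androgenetic through the parthenogenetic to the ICSI group, the vertical axis is a share of counts in percent and the bars are exact 95% binomial intervals, which cover counting error only. In androgenetic replicate 6 the ULBP27 trio held 99.5% of the counts of both trios (left) and ENSBTAG00000001836 1.01% of its counts with ENSBTAG00000048950 (right); the parthenogenetic intervals are wide because those libraries had few counts.

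Rows outside the set that were most like a member over the 10 androgenetic and ICSI libraries centred near 0 in parthenogenetic against ICSI libraries. The parthenogenetic libraries did not enter these correlations. The members themselves, chosen partly for low parthenogenetic counts, were left out of the search. Rows alike in both respects were thus largely removed beforehand, and the centre near 0 is a description. The 5 closest rows of each member, among 14047 rows with a mean of at least 1 CPM, made 34 distinct rows with correlations of 0.928 to 0.997. With so many rows and 10 libraries such values are no finding in themselves: 15 to 72 rows reached 0.9 with a given member, or 0.107% to 0.513%. Of the 34, 18 had a negative log2 fold change in parthenogenetic against ICSI libraries. Their median was -0.03, where the median of all rows was 0.02, so they did not differ from the table as a whole. ULBP3 was at -11.03, and the next lowest was ENSBTAG00000019459 at -1.77. edgeR called 0 of the 34, ULBP3 included, beside 0.0733% of all rows called lower and 0 higher, so that count does not set them apart. The closest to ULBP27 were ENSBTAG00000020642 (0.956), ENSBTAG00000011883 (0.943), ENSBTAG00000004842 (0.937), ENSBTAG00000013947 (0.929) and ENSBTAG00000009470 (0.928).

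Among rows with a symbol, B3GALNT1, a glycosyltransferase gene, was closest to ULBP27 at 0.845, followed by ZCCHC11 (TUT4), whose enzyme adds uridines to RNA, at 0.845. FAM206A (ABITRAM) followed at 0.786, TROVE2 (RO60), whose protein binds small Y RNAs, at 0.785, and SENP8, a NEDD8 protease gene, at 0.783. Their log2 fold changes in parthenogenetic against ICSI libraries lay between -0.26 and 0.22 and none passed (edgeR adjusted p = 0.99997 for each). The median of all rows was 0.02, and ULBP27, chosen for its low parthenogenetic counts, was at -8.33.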

How the data were processed

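RNA-seq libraries of 15 bovine morula samples, 5 per group, were analysed. The kits were SMART-Seq HT and NextEra XT Stranded mRNA, per the labels' protocols. The submitters' processing notes name Trim Galore, cutadapt, STAR and featureCounts. Tool versions, the strand setting of the counting, annotation and build are not given in the sources used here. Values as deposited are whole-number counts per row and library whose totals differ, so they were read as raw. Groups and replicate numbers came from the labels, and each column was matched to a sample by its title.

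Counts were fitted with edgeR 4.0.16 in R 4.3.3: TMM factors, the default filter by group, all 15 libraries with 1 coefficient per group, a quasi-likelihood test, and Benjamini-Hochberg adjustment over 16375 rows. A call is an adjusted p under 0.05, and a p-value covers only how these libraries vary, which may be technical. The SE is the log2 fold change over the square root of F. The fit was tested on simulated data with known changes. DESeq2 1.42.0 and other scaling, filters, fits and left-out libraries were alternatives. Correlations used log2(CPM + 0.5), and intervals are exact (Clopper-Pearson, scipy 1.17.1). The members and gene lists were chosen with earlier results of these data known. Named partners were the 5 closest rows of each member by correlation over the 10 androgenetic and ICSI libraries, and for ULBP27 also the 5 closest symbol rows; listed genes and next neighbours were named whatever their result, and further rows after their values were seen. The labels do not say what the replicate numbers mean, and correlations between libraries cannot decide whether samples are paired. The fit has no block, and a fit with the replicate number as a block was an alternative.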

Additional observations from a re-analysis of the deposited data

Results flagged for a closer look

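Of 34 sets of 5 libraries (12 quantities in up to 3 groups), 18 had a highest or lowest library whose gap to the next exceeded 0.710 of the range. The 5% that goes with this limit applies to normally distributed values. These CPM values are skewed, some rest on few counts, and the members were chosen for uneven androgenetic libraries. The 18 can therefore not be set against that 5%. The rows also move together, so these are not separate observations. ICSI replicate 1 was the high library for 8 of these quantities: ULBP27 at 75.1 CPM (the other ICSI libraries 13.99 to 19.6), ENSBTAG00000024490 at 54.6, ENSBTAG00000023970 at 49.8, ENSBTAG00000001836 at 420, ENSBTAG00000026437 at 40.2, LOC112445446 at 88.6, ULBP3 at 31.4, and the sum of the 8 rows at 1938 CPM (others 266 to 706).

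Androgenetic replicate 4 was the high library for 5: ENSBTAG00000001836 at 258 CPM (others 0.217 to 48.0), ENSBTAG00000048950 at 273 (others 0.493 to 69.5), ENSBTAG00000026437 at 11.02, LOC112445446 at 18.1 and ULBP3 at 10.3 CPM. ULBP27, ENSBTAG00000024490 and ENSBTAG00000023970 were not among them, since androgenetic replicate 6 was near or above replicate 4.

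In parthenogenetic libraries the high libraries differed between rows and rested on few counts. Replicate 3 had ULBP27 at 0.292 CPM (9 counts) and ENSBTAG00000023970 at 0.519 CPM (16 counts), replicate 5 had ENSBTAG00000048950 at 1.53 CPM (49 counts), replicate 1 had ENSBTAG00000001836 at 0.213 CPM (6 counts), and replicate 6 had LOC112445446 at 0.0445 CPM (1 count).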

How the results depend on the processing

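The number of members called in parthenogenetic against ICSI libraries was 6 to 8 under other scaling factors, with no filter, in the fit of those groups alone and in DESeq2, which gave ENSBTAG00000026437 and LOC112445446 no adjusted p. It was 0 to 8 without 1 library, and 0 with the replicate block. Over all rows 12 were called lower in the main fit, 39 in DESeq2 and 3 with the replicate block. In androgenetic against parthenogenetic libraries 8 were called, and 6 in DESeq2. With the replicate block 0 were called, and 0 in the fit of those groups only, where 3 of the 8 passed the filter and were tested. Without 1 library 0 to 8 were called (0 without parthenogenetic replicate 1, 2 without replicate 3, 1 without replicate 5). Over all rows 150 were called higher and 137 lower in the main fit, and 990 and 688 in DESeq2. The replicate block gave 44 and 44, and the fit of those groups only 22 and 5. In androgenetic against ICSI libraries 0 to 1 were called without 1 library, LOC112445446 without androgenetic replicate 4. That fit called 585 rows higher and 492 lower over all rows. Same-numbered libraries had correlations of -0.0743 to 0.113 over 12 pairs and 2 were above 0.1. Pairs with different numbers ranged from -0.28 to 0.209. Between parthenogenetic and ICSI libraries the same-numbered pairs were at 0.0702, 0.0922, 0.0619 and 0.0871, and the others ranged from -0.215 to 0.121. The labels do not say what libraries of the same number share, and these correlations cannot decide it.

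The log2 fold change of ENSBTAG00000023970 in androgenetic against ICSI libraries was -0.84 to 0.13 without 1 library: it turned to 0.02 without androgenetic replicate 2 and to 0.13 without ICSI replicate 1. That of ULBP27 ranged from -1.35 to -0.08 in androgenetic and from -9.76 to -7.56 in parthenogenetic against ICSI libraries, and from 6.98 to 8.91 between the haploid groups, without 1 library. The median correlation was 0.692 to 0.945 without 1 library and 0.800 to 0.910 under the other settings. The mean summed level was 167 to 443 CPM in androgenetic, 8.29 to 8.93 in parthenogenetic and 550.4 to 968 CPM in ICSI libraries without 1 library, where leaving out androgenetic replicate 4 or ICSI replicate 1 gave the lowest. Scaling by DESeq2 size factors moved the all-row median log2 fold change to 0.13 and 0.12 in the comparisons with androgenetic libraries. With 0 to 16 counts per library in most members, levels among parthenogenetic libraries cannot be ordered.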
